A study of Mus musculus with 24 samples.

Results

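Monocytes sorted from colon tumours were compared with monocytes sorted from colon lamina propria (LP), the connective tissue under the gut epithelium, across all measured genes. The members were the 3 tumour monocyte libraries (pools I, II and V) and the 3 LP monocyte libraries (pools III, IV and V), which are 6 of the 24 libraries of the study. The other libraries held macrophages and neutrophils of the same tissues. The comparison asks how the most recent arrivals from blood differ in gene expression between an adenoma and the LP.

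Ly6C high monocytes leave the bone marrow through the chemokine receptor CCR2, enter the colon continually and mature there into macrophages, losing Ly6C and gaining MHC class II on the way. In inflamed tissue the same cells are known as a source of interleukin 1, interleukin 6, interleukin 23 and prostaglandins, and they respond to interferon. Tumours are often short of oxygen, and cells answer low oxygen through the HIF transcription factors, which induce glucose transporters and glycolytic enzymes.

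The LP donors were labelled C57/BL and the tumour donors APC/Min, the latter being Apc Min/+ mice, in which an inherited Apc mutation is present in every cell and adenomas form along the gut. According to the methods, wild-type and Apc Min/+ mice both drank dextran sodium sulphate (DSS), which injures the colon epithelium, for 1 week. The dose was higher for Apc Min/+ mice, and both lines were analysed 4 weeks later. LP is described as healthy in the labels, so whether the LP donors had been treated is open here. Mice were 3 to 4 months old, and 13 to 15 mice were pooled for each library, so the spread between libraries is a spread between pools. Both groups were sorted as F4/80 intermediate, CD11b+, Ly6C high and MHCII- cells. LP was stripped of epithelium with EDTA, digested with collagenase D and enriched on a Percoll gradient of 2 densities, whereas tumours were cut up and digested with collagenase D and DNase I, with no EDTA step described. Mouse line, DSS dose, tissue and cell preparation changed together, so their effects cannot be told apart.

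RNA was measured by sequencing of amplified cDNA and given as log2 RPKM, RPKM being reads per kilobase of gene, scaled to the depth of the library. LP libraries held between 20.8 and 40.2 M reads on genes and tumour libraries between 24.8 and 30.6 M. Of the genes of the sort, Ly6c2 had a mean log2 RPKM of 6.07 in LP and 5.93 in tumour monocytes, with overlapping libraries. The 4 macrophage groups lay between -5.60 and -1.29 for this gene. Ccr2 stood at 6.81 and 6.49, while Ly6g, which marks neutrophils, was at -2.43 and -0.78. Transcripts of MHC class II were present in spite of the MHCII- gate. H2-Ab1, a class II chain, had a mean of 8.74 in LP and 7.88 in tumour monocytes, below the 13.24 and 12.58 of LP and tumour MHCIIhi macrophages. Of the 18 tested genes of a monocyte list, 0 were called by limma. At an unadjusted p under 0.05, 7 rose and 0 fell, where 11.6% and 10.8% of all genes did. By voom 9 rose and 1 fell, against 7.49% and 6.2%. With separate groups, 10 of the 18 were higher in tumour and 2 lower, where 16.2% and 15.1% of all genes were. The list summed to 12300, 15490 and 16680 RPKM in LP libraries III, IV and V. Tumour libraries I, II and V had higher sums, at 26130, 20700 and 22270 RPKM. The cause of these higher sums was not tested.

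Transcripts of epithelial, squamous and plasma cells were set apart from the monocyte comparison. The plasma cell sums separated the groups, and the squamous and epithelial sums did not in every library. In bulk RNA, fewer cells of a type and less RNA per cell cannot be told apart. Squamous genes, which belong to stratified epithelium, summed to 4017, 186.2 and 2507 RPKM in LP libraries III, IV and V, up to 0.969% of the reads, and to 297.9, 248.8 and 218.5 RPKM in tumour libraries I, II and V. LP library IV, with the lowest sum, lay below every tumour library. Krt5, a basal keratin, had 32067, 58 and 8117 reads in LP and 0 reads in each tumour library.

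Plasma cell transcripts were high in every LP library. The immunoglobulin genes summed to 5038, 7658 and 16830 RPKM in LP, between 0.345% and 1.02% of the reads, and to 49.6, 30.3 and 261 RPKM in tumour. Igha, the IgA heavy chain, stood at 541.4, 681.6 and 1633 RPKM against 0.128, 0.627 and 2.81 RPKM. Of 172 immunoglobulin genes tested, 81 fell and 0 rose, where 4.43% of all genes fell. Fibroblast genes summed to 54.1, 29.2 and 40.2 RPKM in LP and to 8.35, 6.73 and 6.8 RPKM in tumour, with 9 of 15 lower and 0 higher. The collagen gene Col1a1 had 532, 158 and 238 reads in LP and 0 in each tumour library.

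Colon epithelial genes overlapped between the groups as a sum, at 443.7, 45 and 232.3 RPKM in LP and 260.9, 745.2 and 467.1 RPKM in tumour. Within the list 5 of 35 tested genes rose and 0 fell, where 4.86% and 4.43% of all genes did, and its median change was 2.70 on the log2 scale. The 5 rises became 2 without tumour library II or V, 3 without LP library III, LP library IV or tumour library I, and 4 without LP library V. Krt18, a keratin of simple epithelium, rose from 2.16, 3.22 and 4.01 RPKM to 16.5, 53.7 and 42.6 RPKM. Of 8 tested Wnt targets typical of adenomas 3 rose, among them Nkd1, an inhibitor of Wnt signalling, with 0 reads in each LP library and 106, 224 and 202 reads in tumour.

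**Figure D1:**
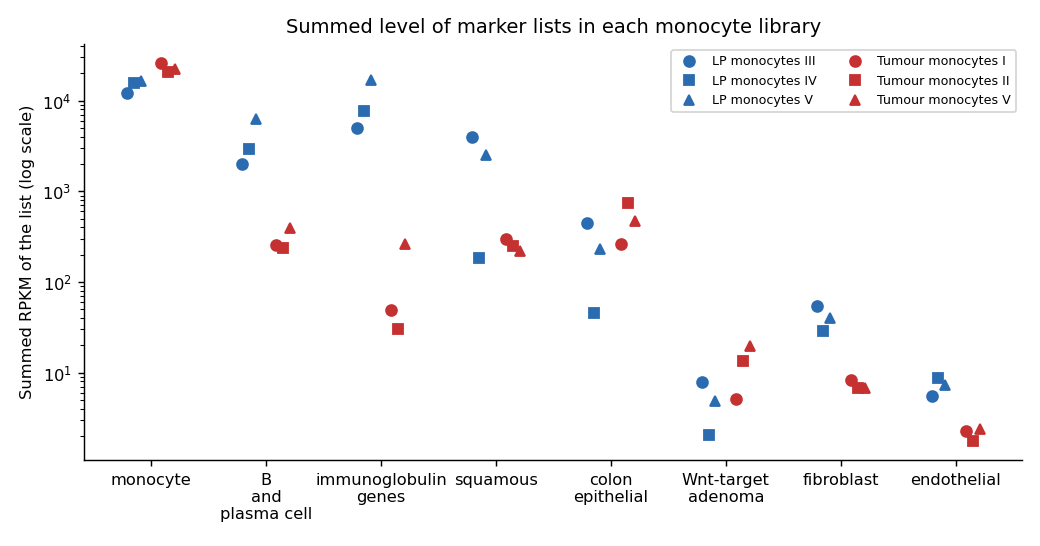
Summed RPKM of marker lists (vertical axis, log scale) in each of the 6 monocyte libraries. Each point is 1 library, blue for LP and red for tumour, with a shape for each library. Immunoglobulin genes were at 5038 to 16830 RPKM in LP and 30.3 to 261 RPKM in tumour, and the squamous sum of LP library IV lay at the level of the tumour libraries.

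Across 12878 tested genes, 1197 (9.29%) differed between tumour and LP monocytes at an adjusted p under 0.05, by limma with Benjamini-Hochberg adjustment. Of these 626 (4.86%) were higher and 571 (4.43%) lower in tumour. The 287 tested genes set apart held 8 of the rises and 99 of the falls, which left 618 rises (4.91%) and 472 falls (3.75%) among the remaining 12591. Every tumour library was above every LP library for 2091 genes (16.2%) and below for 1949 (15.1%). Of the called genes outside those set apart, 346 rose and 293 fell by at least 1 on the log2 scale, and 76 of the 472 falls had at most 3 reads in each tumour library. The balance of rises and falls depended on how libraries were scaled. The deposited values place the median gene at -0.005, and with library sizes taken as summed reads, in limma's voom on reads recovered from those values, the median gene moved to -0.158 and the split became 652 higher and 1242 lower. With libraries centred on their median or quantile normalized it became 777 higher and 486 lower or 738 higher and 548 lower. Falls named below are therefore changes relative to the median gene. Leaving out tumour library I lowered the calls to 768, with 381 higher.

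**Figure D2:**
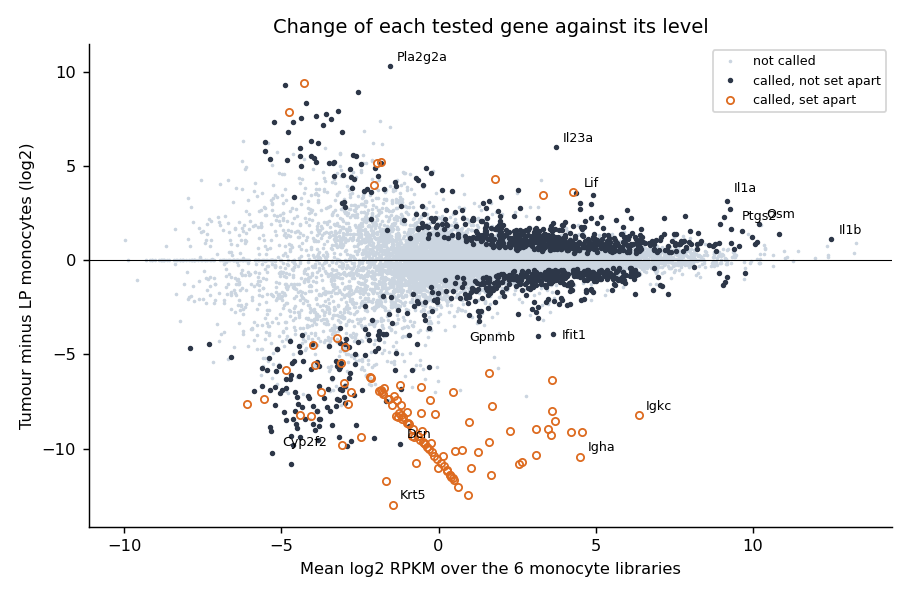
Change of each tested gene between tumour and LP monocytes (vertical axis, log2) against its mean log2 RPKM over the 6 libraries (horizontal axis). Grey points are genes not called, dark points called genes and orange circles called genes among the transcripts set apart. Il1a, Ptgs2, Osm and Il1b lie at high levels with rises, and the largest falls at the lower edge are immunoglobulin and squamous genes.

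Inflammatory cytokine genes were among the largest rises. Of 22 tested genes of the cytokine list, 7 rose (Il23a, Lif, Il1a, Il6, Osm, Il10 and Il1b) and 0 fell, where 4.86% of all genes rose. The median change of the list was 0.31, against -0.005 over all genes with reads, so the rise was carried by a part of it. Over 19 alternatives of the fit, 5 to 8 members rose and at most 1 fell.

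Il23a (chr10:128296139-128298752, GRCm38) encodes the specific subunit of interleukin 23, a cytokine that maintains cells producing interleukin 17. It stood at 0.533, 6.34 and 1.34 RPKM in LP monocytes and at 112, 157 and 66.5 RPKM in tumour monocytes. The lowest tumour library lay far above the highest LP library, and the change was 5.99 ± 1.15 on the log2 scale (SE, n = 3 per group, limma adjusted p = 0.00205).

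Il1a (chr2:129299610-129309972) encodes interleukin 1 alpha, an alarm cytokine held inside the cell and at its membrane. Its values were 191.3, 254.9 and 147 RPKM in LP and 2336, 1577 and 1378 RPKM in tumour, a rise of 3.16 ± 0.28 (limma adjusted p = 7.1e-07). Its partner Il1b was already among the most abundant transcripts in LP, at 2917, 4937 and 4055 RPKM, and reached 10010, 8491 and 7075 RPKM in tumour, a rise of 1.12 ± 0.28 (limma adjusted p = 0.0151). The call of Il1b ended without LP library III or tumour library I, at adjusted p of 0.0708 to 0.0894, whereas Il1a kept its call in all 19 alternatives.

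Of the other cytokine genes that rose, Il6 went from 15.9, 34 and 25.8 RPKM to 96.7, 110 and 111 RPKM (2.13 ± 0.46, limma adjusted p = 0.00533). Osm, which encodes oncostatin M, went from 465, 786.3 and 575.1 RPKM to 2855, 2009 and 2057 RPKM (1.94 ± 0.23, limma adjusted p = 2.46e-05). Lif, leukaemia inhibitory factor, went from 4.78, 7.04 and 6.44 RPKM to 72.7, 91.5 and 57.6 RPKM (3.60 ± 0.67, limma adjusted p = 0.00155). All 3 had separate groups and kept their calls in every alternative.

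Il10, which restrains macrophage activation, was also higher, at 12.4, 17.6 and 15.3 RPKM in LP and 37.8, 36.4 and 38.1 RPKM in tumour. The rise was 1.32 ± 0.39 (limma adjusted p = 0.039), and the call ended when any of the 6 libraries was left out, at adjusted p of 0.0547 to 0.133. Tnf, by contrast, had overlapping groups at 128, 205 and 87.9 RPKM in LP and 120, 102 and 91.8 RPKM in tumour (limma adjusted p = 0.574). Inhba, a subunit of activin, stood at 237, 320.5 and 209.4 RPKM against 1218, 886.7 and 820.2 RPKM (1.93 ± 0.57, limma adjusted p = 0.0374), with the groups far apart but the call again ending without any of the 6 libraries, at 0.0517 to 0.128.

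**Figure D3:**
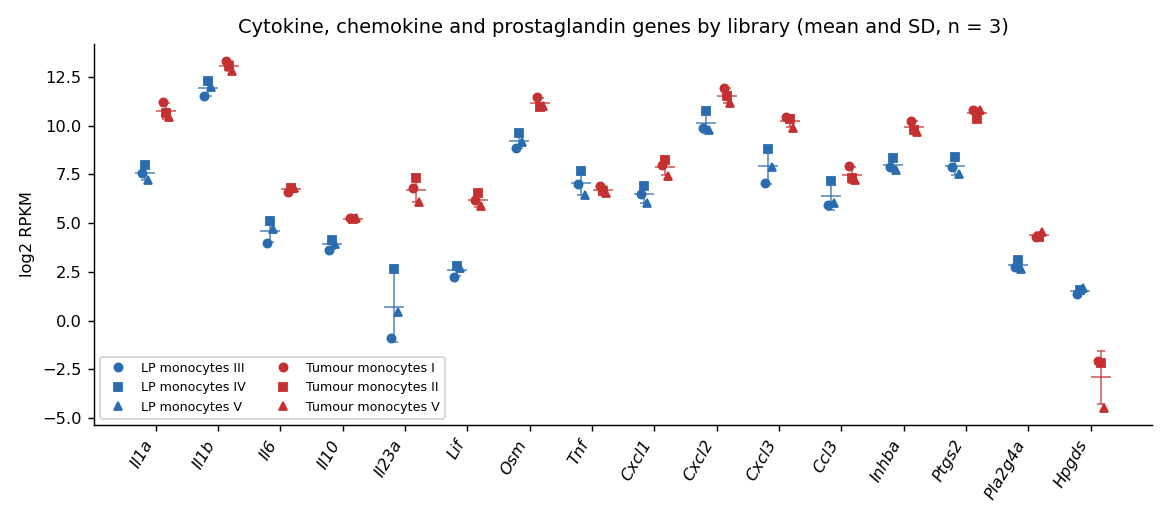
Log2 RPKM (vertical axis) of cytokine, chemokine and prostaglandin genes in each monocyte library, LP in blue and tumour in red, with a shape for each library, the mean as a dash and the SD as error bars (n = 3). The tumour points lie above all LP points for Il1a, Il6, Il23a, Lif, Osm, Cxcl3 and Ptgs2, below them for Hpgds, and among them for Tnf.

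Cxcl1, Cxcl2 and Cxcl3, neutrophil-attracting chemokines of the CXC family that lie near each other on chromosome 5, were higher in tumour monocytes. Of 13 tested CXC genes 3 rose (Cxcl1, Cxcl2 and Cxcl3) and 1 fell, where 4.86% and 4.43% of all genes did. The fall was Cxcl12, a chemokine of stromal cells, with 188, 192 and 114 reads in LP and 0 in each tumour library. The median change over the list was -0.48, with 5 positive and 8 negative changes.

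The 3 risen genes share a match to GGGANTTNC, letters that cover most of the NF-kB motif, in the 250 bases before their start. The sequences below come from RefSeq on GRCm38.p6 and are shown because these 3 genes rose together. They and the motif were chosen after the values were seen, and the capitals mark the motif.
Cxcl1: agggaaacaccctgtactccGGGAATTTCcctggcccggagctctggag
Cxcl2: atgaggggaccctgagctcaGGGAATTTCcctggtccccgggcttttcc
Cxcl3: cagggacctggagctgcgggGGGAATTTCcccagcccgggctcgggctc
They span chr5:90891154-90891202, chr5:90903782-90903830 and chr5:90786008-90786056, all on the + strand, and the motif begins 71, 97 and 73 bases before the start. On either strand the motif was present in that window of 1112 of 27025 genes (4.11%), of 444 of 9067 tested genes with a listed promoter (4.9%) and of 5 of 10 CXC genes. The others were Cxcl9 and Cxcl10, which were not called. Of 4 called cytokine genes with a listed promoter, Il6 held it.

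Cxcl3 rose from 130.8, 453.4 and 232 RPKM to 1406, 1283 and 944.1 RPKM, with separate groups (2.32 ± 0.48, limma adjusted p = 0.00413). Cxcl2, the most abundant of them, went from 935.5, 1712 and 871 RPKM to 3855, 2976 and 2272 RPKM (1.41 ± 0.41, limma adjusted p = 0.037). Cxcl1 went from 91.1, 120 and 65.7 RPKM to 256, 296 and 172 RPKM (1.39 ± 0.43, limma adjusted p = 0.0479). The calls of Cxcl1 and Cxcl2 ended without LP library III or V or tumour library I or II, at adjusted p of 0.0886 to 0.185, and then 1 of the 13 genes rose.

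Other CXC and CC chemokines moved less or with more spread. Cxcl9, an interferon-gamma target, stood at 34.8, 28.8 and 16.9 RPKM in LP and at 6.88, 4.14 and 9.33 RPKM in tumour, separate groups with a limma adjusted p of 0.101. Of 12 tested CC chemokines 1 rose and 1 fell, where 4.86% and 4.43% of all genes did. The fall was Ccl11, a call that ended without LP library III, at a limma adjusted p of 0.0728. Ccl3 rose from 61, 146 and 64.5 RPKM to 243, 157 and 146 RPKM (1.09 ± 0.30, limma adjusted p = 0.0255), with LP library IV at the level of tumour library V. Its call ended without LP library III or V or tumour library I, at 0.124 to 0.138. Ccl2, the ligand of CCR2, stood at 29.4, 56.7 and 36.4 RPKM against 93, 46 and 57.9 RPKM, overlapping groups (limma adjusted p = 0.449).

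Of 18 tested receptors for chemoattractants 4 rose and 1 fell, where 4.86% and 4.43% of all genes did. Ccrl2, an atypical receptor that binds chemerin, rose from 114, 135 and 70.6 RPKM to 619, 573 and 387 RPKM (2.33 ± 0.28, limma adjusted p = 2.58e-05) and kept its call in every alternative. It was the 1 receptor still called without LP library III or without LP library V.

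Genes of prostaglandin synthesis moved in both directions. Prostaglandins are made from arachidonic acid, which phospholipase A2 frees from membranes and cyclooxygenase converts, and dedicated synthases then make each end product. Of 17 tested genes of this pathway 5 rose and 2 fell, where 4.86% and 4.43% of all genes did. Ptgs2 (chr1:150100031-150108227), which encodes the inducible cyclooxygenase 2, stood at 238.9, 335 and 181.4 RPKM in LP and 1756, 1294 and 1771 RPKM in tumour. Here too the lowest tumour library lay far above the highest LP library, and the change was 2.71 ± 0.22 (limma adjusted p = 6.5e-07), called in all 19 alternatives.

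The upstream phospholipase Pla2g4a went from 6.77, 8.59 and 6.22 RPKM to 19.4, 19.5 and 23.3 RPKM (1.54 ± 0.34, limma adjusted p = 0.00598). Downstream, Hpgds, the synthase of prostaglandin D2 in blood cells, fell from 2.55, 3 and 3.14 RPKM to 0.235, 0.22 and 0.0455 RPKM (-4.44 ± 0.39, limma adjusted p = 7.1e-07), which is a change from 230, 473 and 409 reads to 25, 22 and 4. Tbxas1, the thromboxane synthase, rose from 4.02, 4.45 and 4.09 RPKM to 6.9, 8.79 and 10.1 RPKM (1.02 ± 0.20, limma adjusted p = 0.00238). The other fall was Ptges2, a prostaglandin E synthase, from 1.75, 1.86 and 2.37 RPKM to 0.938, 0.4 and 0.277 RPKM (-2.07 ± 0.53, limma adjusted p = 0.0155), a call that ended without LP library V or tumour library II or V, at 0.0589 to 0.0805.

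Of the receptors, Ptger2, which senses prostaglandin E2 and raises cyclic AMP, rose from 4.7, 7.07 and 7.79 RPKM to 23.1, 14.9 and 13.4 RPKM (1.38 ± 0.22, limma adjusted p = 0.000432). Alox5ap, needed for leukotriene synthesis, went from 187, 259 and 242 RPKM to 626, 455 and 342 RPKM (1.02 ± 0.27, limma adjusted p = 0.0205). Its call ended without LP library III or tumour library I or II, at 0.0563 to 0.121.

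Most glycolysis genes had a positive change of modest size. Of 22 tested glycolysis genes 11 rose and 0 fell, where 4.86% and 4.43% of all genes did, and the median change was 0.69. The change was positive for 18 members and negative for 4. Over 19 alternatives of the fit, 6 to 12 members rose and at most 2 fell. Slc2a1, the glucose transporter GLUT1, went from 156, 167 and 140 RPKM to 311, 236 and 384 RPKM (0.98 ± 0.16, limma adjusted p = 0.000431). Pfkfb3, which makes the activator of phosphofructokinase, went from 31.8, 41 and 31.8 RPKM to 80.4, 71.8 and 126 RPKM (1.38 ± 0.19, limma adjusted p = 8.67e-05). Slc2a1 and Pfkfb3 had separate groups and kept their calls in every alternative, as did the glycolytic enzymes Pfkl, Gpi1 and Tpi1, with rises of 0.93, 0.90 and 1.03.

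Other enzymes of the pathway followed with smaller values or less certain calls. Pfkp, the platelet form of phosphofructokinase, stood at 32.8, 32.6 and 29.5 RPKM against 44.3, 51 and 58.5 RPKM, a rise of 0.69. Aldoa, an aldolase, stood at 242, 354 and 304 RPKM against 520, 495 and 544 RPKM, a rise of 0.81, and Eno1, an enolase, rose by 0.69. Gapdh, Pgam1 and Pgk1 rose by 0.79, 0.68 and 0.60. Eno1, Gapdh, Pgam1 and Pgk1 share 25.9%, 25.0%, 36.1% and 53.8% of their 51-base stretches, the length of a read, with other genes, so that their values are uncertain. Ldha, lactate dehydrogenase, stood at 435, 443 and 413 RPKM in LP and 620, 585 and 775 RPKM in tumour, separate groups with a limma adjusted p of 0.0546. Hk2, a hexokinase, had overlapping groups. The calls of Pfkp, Aldoa, Eno1, Gapdh, Pgam1 and Pgk1 each ended without at least 1 of LP libraries III and V and tumour libraries I, II and V, at adjusted p of 0.0505 to 0.117. The count of risen genes fell from 11 to 7 without LP library III or V and to 6 without tumour library V.

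Genes induced by low oxygen showed the same direction. Of 26 tested genes of the hypoxia list, 25 had a positive change, 8 rose and 0 fell, where 4.86% and 4.43% of all genes did, with a median change of 0.92. The list shares Aldoc, Hk2, Slc2a1 and Pfkfb3 with that of glycolysis. Ddit4, an inhibitor of mTORC1, rose from 9.35, 14.9 and 16.7 RPKM to 52.6, 65.9 and 74.8 RPKM (2.27 ± 0.32, limma adjusted p = 0.000147). Ero1l, an oxidase of protein folding, and Mxi1, an antagonist of Myc, rose by 1.21 and 1.14 and, like Ddit4, kept their calls in every alternative. Vegfa, the vascular growth factor, had overlapping groups at 6.52, 11.5 and 14.4 RPKM against 16.5, 17 and 12.5 RPKM. The core of the HIF motif, ACGTG, was found in the 250 bases before the start of 15 of 22 hypoxia genes (68.2%) and 12 of 21 glycolysis genes (57.1%) with a listed promoter, and of 2286 of 9067 tested genes (25.2%). Both lists were drawn from known HIF targets in part, so this share describes the lists and not the change.

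**Figure D4:**
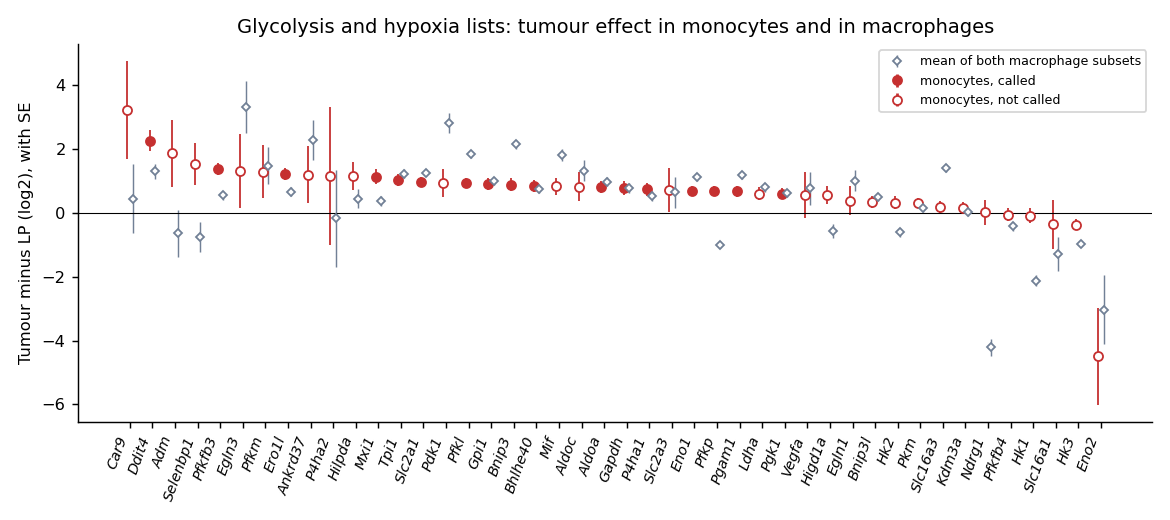
Tumour effect (vertical axis, log2, with SE) for each tested gene of the glycolysis and hypoxia lists, ordered by the effect in monocytes. Red circles are monocytes, filled where called and open where not, and grey diamonds the mean effect of both macrophage subsets. All filled circles lie above 0.

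The NR4A transcription factors were among the regulators that rose. Of 40 tested myeloid transcription factors 7 rose and 2 fell, where 4.86% and 4.43% of all genes did, so that the count of falls is near the share over all genes. Nr4a1, an orphan nuclear receptor induced within minutes of stimulation, went from 58.6, 74.5 and 68.8 RPKM to 244, 303 and 420 RPKM (2.23 ± 0.34, limma adjusted p = 0.000274). Nr4a2 went from 8.03, 10.4 and 13.1 RPKM to 37.2, 36.7 and 37.2 RPKM, and Nr4a3 from 0.904, 1.14 and 0.764 RPKM to 6.59, 8.41 and 7.8 RPKM, rises of 1.84 and 3.03. All 3 family members kept their calls in every alternative.

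NR4A genes are immediate-early genes, and of 24 tested genes of that class 7 rose and 1 fell, where 4.86% and 4.43% of all genes did. Egr2, a zinc finger factor, went from 8.61, 15.1 and 10.3 RPKM to 32.6, 31.2 and 26.6 RPKM (1.44 ± 0.24, limma adjusted p = 0.000613). Atf3, Fosl2 and Junb, all of the AP-1 and ATF group, rose by 1.05, 0.86 and 0.77, with calls that ended without at least 2 of the 6 libraries each (LP III, LP V, tumour I, tumour II or tumour V), at adjusted p of 0.0518 to 0.131. Such genes are also known to respond to tissue digestion, which differed between the groups and cannot be told apart from tissue. The number of risen genes fell to 3 without LP library III and to 4 without LP library V, tumour library II or tumour library V.

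The factors that fell were Maf and Myc. Maf, which drives macrophage maturation and Il10, stood at 6.46, 6.93 and 6.1 RPKM in LP and 1.26, 0.937 and 0.896 RPKM in tumour (-2.67 ± 0.41, limma adjusted p = 0.000282). Myc, a driver of growth, stood at 14.1, 4.37 and 6.81 RPKM against 0.931, 2.37 and 1.89 RPKM (-2.22 ± 0.44, limma adjusted p = 0.00259). Runx1 rose from 17.5, 15.4 and 12.6 RPKM to 27.3, 27.8 and 23.5 RPKM (0.80 ± 0.16, limma adjusted p = 0.00387). The LP and tumour libraries were apart for each of these. The call of Myc ended in a fit on only the 6 monocyte libraries (limma adjusted p = 0.0731). Among the LP libraries Myc was lowest in library IV, as were the squamous and colon epithelial sums. The part of squamous and epithelial cells in the fall of Myc was not tested.

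Interferon-stimulated genes were lower in tumour monocytes as a group. Type I interferons act through transcription factors that bind an element holding GAAANNGAA before genes of antiviral defence. Of 34 tested genes of the type I interferon list 12 fell and 0 rose, where 4.43% of all genes fell. All 34 had a negative change, in 21 every tumour library lay below every LP library, as in 15.1% of all genes, and the median change was -0.79. Over 19 alternatives 9 to 22 members fell and 0 rose.

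The sequences before 3 of the fallen genes, again from RefSeq on GRCm38.p6 and chosen after the values were seen, show the element on the reverse strand, with capitals marking it. Each is written along the strand of its gene, so the element reads as its reverse complement.
Ifit1: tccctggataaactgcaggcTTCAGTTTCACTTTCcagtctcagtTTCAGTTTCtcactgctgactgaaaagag
Ifit3: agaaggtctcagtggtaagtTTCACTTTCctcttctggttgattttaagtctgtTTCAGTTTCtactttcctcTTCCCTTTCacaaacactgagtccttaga
Rsad2: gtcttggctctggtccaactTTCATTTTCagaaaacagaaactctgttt
They span chr19:34640760-34640833 (+), chr19:34583354-34583455 (+) and chr12:26456543-26456591 (-). Ifit1 holds 3 matches, of which neighbours overlap, Ifit3 holds 3 and Rsad2 holds 1. On either strand the element was in the 250 bases before the start of 2211 of 27025 genes (8.18%), of 713 of 9067 tested genes (7.86%), of 13 of 24 type I interferon genes with a listed promoter and of 3 of the 8 among these that fell.

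Ifit1, which binds viral RNA, fell furthest in the list, from 40.6, 95.7 and 29.3 RPKM to 2.94, 2.32 and 4.89 RPKM (-3.91 ± 0.37, limma adjusted p = 1.15e-06). Ifit2 went from 17.5, 21.8 and 9.58 RPKM to 1.34, 2.53 and 2.95 RPKM, and Ifit3 from 19.1, 47 and 19.5 RPKM to 1.76, 3.29 and 5.07 RPKM, falls of -2.84 and -3.07. Ifit3 shares 50.8% of its 51-base stretches with other genes, mostly with its copy Ifit3b, and is uncertain to that extent. Rsad2, or viperin, which blocks viral replication, went from 41.3, 91.2 and 33.4 RPKM to 12.5, 10.5 and 13.7 RPKM (-2.04 ± 0.35, limma adjusted p = 0.000872).

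The fall extended to genes that damp the response. Usp18, which removes the ubiquitin-like ISG15 and shuts down the receptor, went from 29.8, 57.9 and 34.2 RPKM to 5.24, 7.58 and 10.3 RPKM (-2.39 ± 0.34, limma adjusted p = 0.000158). Mx1 and Mx2, the antiviral GTPases, changed by -2.50 and -2.56, Cmpk2, a mitochondrial nucleotide kinase, by -2.74 and Rtp4 by -1.53. LP library IV was the highest of the 6 libraries for Ifit1, Ifit2, Ifit3, Cmpk2, Mx1, Mx2, Usp18, Rsad2 and Rtp4, and all 9 kept their calls without it.

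Other members were lower by less. Irf7, the amplifier of interferon production, stood at 81.7, 128 and 88.9 RPKM against 60.6, 52.9 and 56.7 RPKM, separate groups with a limma adjusted p of 0.0825. Isg15 itself, at 17.1, 38.8 and 16.6 RPKM against 13.9, 11.1 and 7.62 RPKM, had an adjusted p of 0.188.

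Interferon-gamma targets were lower with more spread. Of 22 tested genes of that list 7 fell and 0 rose, where 4.43% and 4.86% of all genes did, with a median change of -0.73. Irgm1, a GTPase of defence within cells, stood at 58.3, 47.2 and 40 RPKM in LP and 21.2, 6.05 and 10.5 RPKM in tumour (-2.12 ± 0.44, limma adjusted p = 0.00404). Gbp9, a guanylate-binding protein, stood at 35.2, 27.8 and 25.5 RPKM against 12.2, 9.56 and 15.8 RPKM (-1.25 ± 0.28, limma adjusted p = 0.00631). Tumour library II had the lowest value of the 6 libraries for both. The call of Irgm1 ended in a fit on only the 6 monocyte libraries (limma adjusted p = 0.0553). The number of fallen genes went from 7 to 2 without tumour library II, to 3 without LP library III and to 4 without LP library V. Of the 7, the 4 with a listed promoter (Gbp2, Igtp, Irgm1 and Irgm2) all held GAAANNGAA, as did 10 of 16 in the list.

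**Figure D5:**
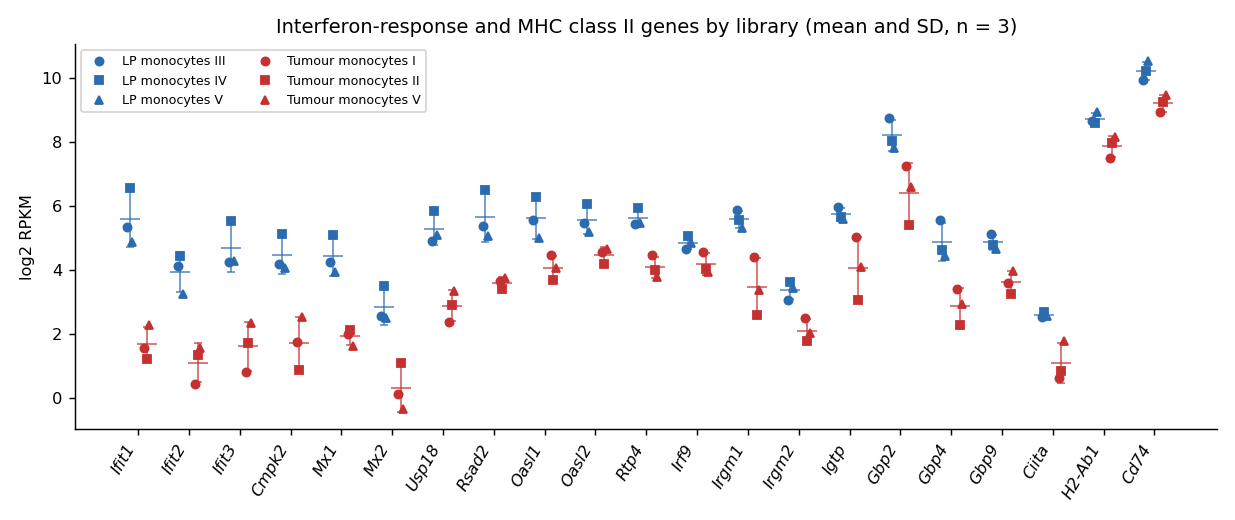
Log2 RPKM (vertical axis) of interferon-response and MHC class II genes in each monocyte library, LP in blue and tumour in red, with a shape for each library, the mean as a dash and the SD as error bars (n = 3). For Ifit1, Ifit2, Ifit3, Cmpk2, Usp18 and Rsad2 all tumour points lie below all LP points, while the shift of H2-Ab1 and Cd74 is smaller.

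Of 12 tested genes of MHC class II presentation 1 fell and 0 rose, where 4.43% of all genes fell, with 7 negative and 5 positive changes and a median of -0.94. The gene that fell was Ciita, the master activator of the class II promoters, at 5.77, 6.42 and 5.91 RPKM in LP and 1.56, 1.79 and 3.47 RPKM in tumour (-1.5 ± 0.36, limma adjusted p = 0.0104). Its call ended without tumour library I, at 0.0634. Cd74, the invariant chain, stood at 986.3, 1187 and 1463 RPKM against 486.4, 608.4 and 710.6 RPKM, and H2-Ab1 at 406, 389 and 496 RPKM against 182, 251 and 285 RPKM. Both had separate groups, with limma adjusted p of 0.214 and 0.439.

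Of 24 tested genes of resident macrophages 3 fell and 2 rose, where 4.43% and 4.86% of all genes did, with a median of -0.28. The falls became 1 without tumour library I and 2 without LP library V or tumour library II, and the rises became 1 without LP library III, LP library IV or tumour library V. Mrc1, the mannose receptor, went from 12.7, 22.9 and 24.8 RPKM to 1.35, 2.5 and 9.66 RPKM (-2.60 ± 0.59, limma adjusted p = 0.00773), a call that ended without tumour library I, at 0.0579. Hmox1, haem oxygenase 1, which breaks down haem, rose from 422.6, 594.3 and 397.3 RPKM to 1229, 1196 and 1729 RPKM (1.56 ± 0.34, limma adjusted p = 0.00631). Hmox1 kept its call in every alternative.

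Of 20 tested lipid-handling genes 7 fell and 1 rose, where 4.43% and 4.86% of all genes did. Gpnmb, a glycoprotein of lysosomes in lipid-laden macrophages, fell from 34.7, 48 and 28.3 RPKM to 3.16, 3.11 and 1.11 RPKM (-4.03 ± 0.37, limma adjusted p = 1.01e-06). Plin2, which coats lipid droplets, went from 808, 982 and 694 RPKM to 508, 313 and 313 RPKM (-1.16 ± 0.24, limma adjusted p = 0.00398). The call of Plin2 ended in a fit on only the 6 monocyte libraries (limma adjusted p = 0.0548). Scarb1, a receptor for high-density lipoprotein, was the member that rose, by 1.11 ± 0.28. The number of falls dropped to 2 without LP library IV, to 3 without LP library V, tumour library I or tumour library II, and to 4 without LP library III.

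Of 32 tested pattern recognition receptors 2 rose and 2 fell, and of 25 receptors for growth factors and cytokines 3 rose and 3 fell, where 4.86% and 4.43% of all genes did. Il17ra, the receptor chain for interleukin 17, rose from 57.6, 54.8 and 60.3 RPKM to 128, 129 and 145 RPKM (1.22 ± 0.22, limma adjusted p = 0.00144). Clec12a, an inhibitory lectin that senses uric acid crystals, rose from 6.99, 6.13 and 9.07 RPKM to 21.8, 14.2 and 18 RPKM (1.28 ± 0.23, limma adjusted p = 0.00107). Tlr2, which recognises bacterial lipoproteins, rose from 180, 234 and 148 RPKM to 539, 509 and 448 RPKM (1.44 ± 0.23, limma adjusted p = 0.000431). The replicates of each were tight and the groups apart.

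Among checkpoint and co-stimulatory genes 2 of 16 rose and 2 fell, against the same shares. Cd47, the signal against being eaten, rose by 0.65 ± 0.11, from 63.9, 67.2 and 68.9 RPKM to 113, 95.2 and 106 RPKM (limma adjusted p = 0.000978). Cd200r1, an inhibitory receptor, fell from 14.9, 32.7 and 24.3 RPKM to 5.4, 6.51 and 4.79 RPKM (-2.05 ± 0.36, limma adjusted p = 0.000978). Slamf7, a receptor of the SLAM family, fell by 1.55 on the log2 scale. These 3 kept their calls in every alternative. The part of plasma cells, whose transcripts were high in every LP library, in the fall of Slamf7 was not tested.

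The 12 largest rises among genes with a mean of at least 10 RPKM in the higher group, outside the lists set apart, were Pla2g2a, Il23a, Apold1, Lif, Olr1, Tmem119, Il1a, Ppp1r3b, Arrdc3, Stk38l, Rcan1 and Ptgs2. All 12 were called in all 19 alternatives. Pla2g2a (chr4:138831857-138835186), a secreted phospholipase A2 known as a modifier of adenoma number in Apc Min mice, had 0 reads in each LP library and 314, 345 and 296 reads in tumour, or 11.3, 13.2 and 12.3 RPKM. It was at least 126.5-fold higher, counted against a floor of 3 reads per LP library (limma adjusted p = 7.1e-07). The part of epithelial cells in this rise was not tested, nor was whether the transcript yields active enzyme.

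The lectin-like receptor Olr1 for oxidised low-density lipoprotein went from 9.09, 12.2 and 7.03 RPKM to 110, 104 and 87.5 RPKM (3.44 ± 0.57, limma adjusted p = 0.00061). Arrdc3, an arrestin-like protein, went from 9.27, 10.8 and 10.4 RPKM to 81.5, 78.7 and 84.2 RPKM (3.0 ± 0.28, limma adjusted p = 1.15e-06). Rcan1, an inhibitor of calcineurin, went from 4.54, 13.3 and 11.4 RPKM to 57.2, 44.6 and 79.8 RPKM (2.74 ± 0.40, limma adjusted p = 0.000207). Ppp1r3b, which directs a phosphatase to glycogen, rose by 3.02, the kinase Stk38l by 2.76, Apold1, an immediate-early gene of endothelium, by 3.74 and Tmem119, known from microglia, by 3.34.

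The 12 largest falls under the same rule were Cyp2f2, Dcn, Ifi202b, Igfbp3, Calm4, Gpnmb, Ifit1, Hspb1, Ifit3, Cavin1, Ifit2 and Cmpk2. They divide by LP library. In 7 of them LP library IV was the lowest of the LP libraries, as it was for the squamous sum. In 5 (Gpnmb, Ifit1, Ifit2, Ifit3 and Cmpk2) it was the highest. Cyp2f2, a cytochrome P450, had 878, 21 and 1195 reads in LP and 0 in each tumour library, and Ifi202b, an interferon-inducible DNA sensor, had 1029, 23 and 2154 reads against 0, 0 and 1. Against a floor of 3 reads per tumour library they were at least 212-fold and 313-fold lower. The call of Cyp2f2 ended in voom on recovered reads, as did that of Ifi202b, whose adjusted p reached 0.117 over the alternatives.

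Dcn, or decorin, a matrix protein of fibroblasts, had 870, 632 and 1292 reads in LP and 0, 10 and 0 in tumour. Igfbp3, a carrier of insulin-like growth factors, stood at 71, 0.423 and 3.53 RPKM in LP, Calm4, a calmodulin-like protein of skin, at 0.922, 0.853 and 31.4 RPKM, Cavin1, of caveolae, at 27.3, 2.17 and 5.21 RPKM and Hspb1, a small heat shock protein, at 17.8, 1.68 and 13.9 RPKM. The LP libraries of these 4 lay far apart from each other. The calls of all 4 ended in a fit on only the 6 monocyte libraries. Those of Igfbp3, Hspb1 and Cavin1 also ended in voom on recovered reads. Leaving out LP library III ended the calls of Igfbp3, Hspb1 and Cavin1, LP library V those of Igfbp3 and Hspb1, tumour library I that of Hspb1, tumour library II that of Cavin1 and tumour library V those of Igfbp3 and Calm4, at adjusted p of 0.0539 to 0.184. The part of squamous and stromal cells in these falls was not tested.

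Monocytes and macrophages were set side by side to see which changes differed between them. The tumour effect in monocytes minus the mean effect of MHCIIhi and MHCIIlow macrophages was called for 1183 genes (9.19%), 726 above 0 (5.64%) and 457 below (3.55%). Of the 12 largest rises 10 were also called in macrophages, where 16.3% of all genes rose, and of the 12 largest falls 10 were, where 17.6% fell. Macrophage libraries of a tissue may come from the same pools of mice as the monocytes.

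Several cytokine and chemokine genes rose in monocytes and not in macrophages. The effect on Il10 was 1.32 in monocytes and -1.68 in macrophages, a difference of 3.0 ± 0.48 (limma adjusted p = 0.000396). For Cxcl3 the effects were 2.32 and -1.0 (3.32 ± 0.59, limma adjusted p = 0.000996) and for Il6 2.13 and -0.22 (2.35 ± 0.57, limma adjusted p = 0.0102). The difference of each held with any monocyte library left out. Il1a, Osm and Il23a rose in both, with differences of 1.01, 0.15 and 1.55 that were not called.

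Receptors and regulators diverged more tightly. Clec12a changed by 1.28 in monocytes and by -1.62 in macrophages (2.90 ± 0.28, limma adjusted p = 1.42e-06), and Il17ra by 1.22 and -1.18 (2.39 ± 0.27, limma adjusted p = 1.25e-05). Ptger2 changed by 1.38 and -0.63 (2.01 ± 0.27, limma adjusted p = 6.48e-05) and Runx1 by 0.80 and -0.60 (1.39 ± 0.20, limma adjusted p = 0.000138). In the opposite direction, Hpgds changed by -4.44 and -0.35 (-4.09 ± 0.48, limma adjusted p = 1.54e-05), Maf by -2.67 and 0.42 (-3.10 ± 0.50, limma adjusted p = 0.000389) and Ciita by -1.5 and 1.59 (-3.09 ± 0.44, limma adjusted p = 0.000114).

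The type I interferon genes were lower in both, and further in macrophages, where the median of the list was -1.90. The difference was above 0 for 10 of the 34 genes and below 0 for 0, where 5.64% and 3.55% of all genes were. Rsad2 changed by -2.04 in monocytes and -3.94 in macrophages (1.90 ± 0.43, limma adjusted p = 0.00695), and Rtp4, a chaperone of receptors, by -1.53 and -3.34 (1.80 ± 0.42, limma adjusted p = 0.00854). Interferon-gamma targets went the other way, with 5 of 22 below 0 and 0 above, among them Gbp9, at -1.25 and 0.14 (-1.39 ± 0.34, limma adjusted p = 0.0111). Glycolysis genes had similar medians, 0.69 in monocytes and 0.79 in macrophages, with 4 of 22 above 0 and 2 below. Pfkp changed by 0.69 and -0.99 (1.68 ± 0.21, limma adjusted p = 2.76e-05) and Pfkl, the liver form, by 0.93 and 1.84 (-0.91 ± 0.20, limma adjusted p = 0.00436). Of 55 cell cycle genes 12 were below 0 and 0 above, at medians of -0.11 in monocytes and 1.94 in macrophages.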

How the data were processed

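RNA of sorted myeloid cells was prepared with a modified SMARTSeq v2 protocol, which does not mark strand and uses no molecular identifiers, and sequenced as paired ends of 51 bases. The submitters' processing notes name STAR 2.3, featureCounts 1.5 and edgeR, on GRCm38. The authors deposited the values as log2 RPKM for 17301 genes in 24 libraries, with a prior count of 0.25 reads and scaled library sizes, as read from the values. Columns of comparisons made by the authors were not used.

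The deposited log2 values were turned back into whole reads by finding, for each gene, the whole-number length that turns all its values into whole reads, which held for 100% of 415224 values within 0.0001 reads. The reads served for depth, for bounds against a floor of 3 reads and for limma's voom as an alternative count test, which called 1764 genes. The ± values are standard errors of the fit and come from the spread between libraries, whereas the floors cover counting error only. Names and coordinates came from GENCODE M21, which matched 17190 genes.

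The comparisons used limma 3.58.1 (R 4.3.3), with lmFit and a trended eBayes on 1 model of 8 group means over all 24 libraries, which share 1 estimate of the spread. A gene entered if its mean RPKM reached 1 in any of the 8 groups. Benjamini-Hochberg adjustment was made per comparison over all genes tested, and genes with an adjusted p under 0.05 were called. The tumour effect in macrophages was the mean over both subsets. The methods describe the same tools, limma and voom, and here the deposited values were the main input. The fit was tested on simulated data. Tables and figures used python 3.11.15, numpy 2.4.6, pandas 2.3.3 and matplotlib 3.10.9.

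Genes of 42 lists were described by counts and medians, and no test of a list was made. The genes set apart were those of the epithelial, Wnt, squamous and plasma cell lists and immunoglobulin genes. All genes of the families named Krt, Sprr, Lce, Cldn, Muc, Dsg and Dsc were set apart as well. Named genes were members of the lists, genes of the sort and, in each direction, the 12 genes with the largest change among called genes with separate groups and a mean of at least 10 RPKM in the higher group, without genes set apart, predicted genes and receptor segments. Members and lists were chosen with earlier results of these data known. Replicates differed by more than sampling noise, with r of 0.813 to 0.863 between LP and 0.904 to 0.924 between tumour libraries, so each counted as 1 sample.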

Additional observations from a re-analysis of the deposited data

Results flagged for a closer look

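Among the 24 genes with the largest changes, the tumour effect of 6 differed between monocytes and macrophages by the test of the difference itself, against 9.19% of all genes, the 24 having been chosen for a large change in monocytes. Olr1 rose by 3.44 in monocytes and changed by -0.15 in macrophages, a difference of 3.59 ± 0.70 (limma adjusted p = 0.00213). Rcan1 rose by 2.74 and changed by -0.19, a difference of 2.93 ± 0.49 (limma adjusted p = 0.000625). Arrdc3 and Ptgs2 rose in both, with differences of 1.42 ± 0.34 (limma adjusted p = 0.0108) and 1.25 ± 0.27 (limma adjusted p = 0.00448). Gpnmb fell by 4.03 in monocytes and by 2.14 in macrophages, a difference of -1.88 ± 0.45 (limma adjusted p = 0.00964). Cyp2f2 fell in monocytes to 0 reads and changed by -1.38 in macrophages, a difference of -8.48 ± 2.20 (limma adjusted p = 0.0171), which was not called without LP library III or LP library V, at 0.0547 to 0.0637. The differences of the other 5 genes held with any monocyte library left out.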

How the results depend on the processing

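Calls changed sign in 0 of the alternatives, and the 12 largest rises kept theirs in all 19. Among main counts of 1197 genes called (626 higher, 571 lower), 1090 without the transcripts set apart (618 and 472) and 1183 for the difference from macrophages, arrayWeights gave 1869 (963 and 906), 1738 (954 and 784) and 1866. Voom on recovered reads gave 965 higher and, without the transcripts set apart, 1676 (949 and 727). These choices were made after seeing the data: voom with library sizes as summed reads gave 1894 (1242 lower), 1801 (1163 lower) and 1996, and voom with the transcripts set apart and fibroblast genes left out of library sizes, which moved the median gene to -0.174, gave 1911 (621 higher, 1290 lower), 1818 (1211 lower) and 2034. With log2(RPKM + 1), 724 genes fell outside the transcripts set apart and the difference was called for 1902. The cause of these shifts was not tested. Without genes at 3 reads or fewer throughout a group, also added later, 1012 were called (596 and 416).

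Leaving out each monocyte library in turn gave 768 to 1072 calls, 381 to 554 higher and 379 to 518 lower, and without the transcripts set apart 690 to 950 calls, 375 to 548 higher and 295 to 402 lower. The lowest counts came without tumour library I (768, 381, 690 and 375), LP library V (379) and LP library III (295). The difference from macrophages was called for 899 to 1091 genes. Squamous genes called lower went from 11 to 26 without LP library IV and to 3 without LP library III or V. Ly6c2, not called, ranged from -0.46 without LP library III to 0.04 without LP library IV. A fit on only the 6 monocyte libraries called 931 genes (493 higher and 438 lower), 664 of them among the 1197. That fit ended the calls of Il1b, Cxcl1, Cxcl2, Ccl3, Alox5ap, Eno1, Ciita, Mrc1, Myc, Plin2 and Irgm1, among other genes.

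Tumour and LP monocytes share the pool number V alone, from different mice, so numbers pair libraries only within a tissue, across cell types. Over 29 such pairs deviations from the group mean correlated at -0.0661 to 0.255. With the pool number as a replicate block 1209 genes were called (630 higher and 579 lower), 1188 of them among the 1197, with 1100 outside the transcripts set apart and 1256 for the difference.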

Other observations

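Several lists outside the comparisons above gave few calls. Of 55 tested S and G2/M genes 4 fell and 1 rose, where 4.43% and 4.86% of all genes did, among the falls Cenpa, a centromere histone, from 44.2, 49.3 and 41.1 RPKM to 17.6, 14.6 and 12.8 RPKM (-1.59 ± 0.23, limma adjusted p = 0.000207), and Pcna, the sliding clamp of replication, from 26.5, 32.5 and 31.6 RPKM to 21.1, 17.2 and 16.2 RPKM (-0.74 ± 0.15, limma adjusted p = 0.00407). Both kept their calls in every alternative.

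Of 7 tested erythroid and platelet genes 3 rose from traces and 0 fell, where 4.86% and 4.43% of all genes did. The 3 rises became 1 or 2 whichever monocyte library was left out. Without LP library IV or tumour library II, 1 member fell. Among the rises was the globin gene Hbb-bs, at 0.0103, 0.0629 and 0.138 RPKM in LP and 1.56, 1.24 and 1.26 RPKM in tumour. It shares 53.1% of its 51-base stretches with other globin genes and was not called without LP library III, at 0.0639. Of 14 heat shock genes 2 rose and 1 fell, where 4.86% and 4.43% of all genes did. The 2 rises became 1 without tumour library I and 0 without any other monocyte library. Of 23 neutrophil genes 1 rose, which became 2 without tumour library I and 0 without any other monocyte library. Of 12 dendritic cell genes 0 changed, and of 14 T and NK cell genes 2 fell. These counts, by limma at an adjusted p under 0.05, stand against the same shares over all genes.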
